A study of Mus musculus with 40 samples.

Results

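The Zscan4 family is a set of zinc finger genes and pseudogenes that lie side by side on mouse chromosome 7. Its 8 members here were taken by symbol from 3 count tables: Zscan4a, Zscan4b, Zscan4c, Zscan4d, Zscan4e, Zscan4f, Zscan4-ps1 and Zscan4-ps2. They are 8 of 55393 gene symbols in the tables, and all 8 were listed in each table. All 8 passed the filter on low counts in each table when its groups were filtered together. In the 34 libraries examined the summed count of the family ran from 0 to 2263. Outside the time course it was highest in cells labelled as lacking Ctbp1 and Ctbp2, intermediate in cells overexpressing Pramel7 and low in wild-type cells. It was at or near 0 in every group without Dux or Dppa2. In the time course, also run in cells labelled as lacking both Ctbp genes, it ranged from 115 to 1451.

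Zscan4 genes encode proteins with a SCAN domain, which pairs such proteins with each other, and C-terminal zinc fingers that bind DNA. In the mouse embryo they are transcribed in a burst at the 2-cell stage. In cultured embryonic stem cells a small and changing fraction of cells switches them on, together with other 2-cell genes, and Zscan4 is known for its part in telomere maintenance by recombination in those cells. The transcription factor Dux activates many 2-cell genes, Zscan4 among them. Dppa2 is a DNA-binding protein that primes such genes and acts upstream of Dux. CtBP1 and CtBP2 are corepressors that bridge DNA-binding proteins and chromatin enzymes, and Pramel7 is a protein of the preimplantation embryo and of naive stem cells that is linked to low DNA methylation.

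All libraries came from E14tg2a, a mouse embryonic stem cell line kept in serum with leukaemia inhibitory factor, and RNA was sequenced after a stranded library kit. In the genotype table there were pairs of libraries from WT cells, CtbpDKO, DuxKO, Ctbp_DuxTKO, Dppa2KO and DKO_Dppa2. By label, CtbpDKO lost both Ctbp genes, Ctbp_DuxTKO both Ctbp genes and Dux, and DKO_Dppa2 both Ctbp genes and Dppa2. The last pair is titled Dppa2_DuxTKO but described as DKO_Dppa2_KO, and the description was followed because its Ctbp1 count was 4 and 0 against 1911 and 2109 in WT. The Pramel7 table had 4 libraries from WT, and pairs from DuxKO, P7OE (Pramel7 overexpression), DuxKO_P7OE (Pramel7 overexpression in DuxKO cells) and P7KO (Pramel7 knockout). CtbpDKO cells whose title carries the word Dox were sampled on days 0, 3, 9, 12 and 18, again as pairs. Their descriptions carry the name iCt2, which the CtbpDKO pair of the genotype table does not, and the labels do not explain it. The labels do not state what was given on which day, how many clones stand behind a genotype, or whether libraries of a group came from separate cultures, so p-values measure only the spread between these libraries, which may be technical.

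Library totals were 19944644 to 36025046 counts for the genotypes, 10123058 to 30135341 for the Pramel7 set and 16674526 to 30169626 over the days of the time course. Duxf3, the row that holds Dux, had 0 counts in all DuxKO, Ctbp_DuxTKO and DuxKO_P7OE libraries. WT had only 1 and 0 counts of it in the genotype table and 2, 1, 1 and 0 in the Pramel7 table. Dppa2KO and DKO_Dppa2 were also at 0, so this row does not check the DuxKO label. CtbpDKO had 40 and 24 counts of Duxf3. Pramel7 had 435 and 431 counts in P7OE against 2 to 4 in WT, and 0 and 3 in P7KO, which overlaps the WT counts. Dppa2 kept 1208 and 1027 counts in Dppa2KO against 1707 and 1868 in WT, and 426 and 464 in DKO_Dppa2. Ctbp2 kept 1429 and 1568 counts in CtbpDKO against 6293 and 6591 in WT. It kept 922 and 1187 counts in Ctbp_DuxTKO and 729 and 872 in DKO_Dppa2. Which part of each gene was removed is not stated, so the Dppa2 and Ctbp2 rows do not check those labels. The 7 embryonic stem cell markers (Pou5f1, Sox2, Nanog, Esrrb, Zfp42, Klf4 and Tfcp2l1) were present in all groups, with a summed level from 1490 to 2920 CPM (counts scaled to a common library size).

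The loci follow each other on chromosome 7 of GRCm38.p6 in the order Zscan4a, Zscan4b, Zscan4c, Zscan4-ps1, Zscan4d, Zscan4e, Zscan4f and Zscan4-ps2, from position 10794241, the start of Zscan4a, to position 11518688, the end of Zscan4-ps2. RefSeq annotates Zscan4b (10900740 to 10905050), Zscan4c (11005745 to 11010547), Zscan4d (11161643 to 11166148) and Zscan4f (11397915 to 11402318) as protein coding. Zscan4a (10794241 to 10799065) is a transcribed pseudogene there. Zscan4e (11306369 to 11310682), Zscan4-ps1 (11065139 to 11069691) and Zscan4-ps2 (11514287 to 11518688) are pseudogenes. A ninth locus, Zscan4-ps3 (11609308 to 11614112), is no member and is given only for comparison. The copies are nearly identical and the way reads with several matches were counted is not given in the sources used here, so the split of counts between loci is uncertain and the sum over loci is the firmer value.

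How alike the copies are can be read from the promoters, which are shown because these members moved together. RefSeq promoter windows of GRCm38.p6, from 250 bases before to 50 bases after the annotated start, matched 4 of the 8 members. They are chr7:10905001-10905300 on the minus strand for Zscan4b, chr7:11005495-11005794 on the plus strand for Zscan4c, chr7:11166099-11166398 on the minus strand for Zscan4d and chr7:11397665-11397964 on the plus strand for Zscan4f. Capitals mark TATAAA, the core of a TATA box, and TGATTCAA.
Zscan4b: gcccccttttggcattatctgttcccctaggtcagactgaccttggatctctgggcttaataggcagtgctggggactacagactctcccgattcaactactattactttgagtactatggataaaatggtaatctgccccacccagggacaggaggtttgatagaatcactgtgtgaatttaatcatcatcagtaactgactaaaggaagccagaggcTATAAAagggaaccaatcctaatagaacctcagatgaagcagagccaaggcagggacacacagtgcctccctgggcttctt
Zscan4c: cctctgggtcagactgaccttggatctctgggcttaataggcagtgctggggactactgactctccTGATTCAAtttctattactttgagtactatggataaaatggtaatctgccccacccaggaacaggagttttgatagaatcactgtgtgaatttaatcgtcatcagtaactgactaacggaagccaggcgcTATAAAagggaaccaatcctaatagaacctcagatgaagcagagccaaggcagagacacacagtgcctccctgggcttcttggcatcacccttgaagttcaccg
Zscan4d: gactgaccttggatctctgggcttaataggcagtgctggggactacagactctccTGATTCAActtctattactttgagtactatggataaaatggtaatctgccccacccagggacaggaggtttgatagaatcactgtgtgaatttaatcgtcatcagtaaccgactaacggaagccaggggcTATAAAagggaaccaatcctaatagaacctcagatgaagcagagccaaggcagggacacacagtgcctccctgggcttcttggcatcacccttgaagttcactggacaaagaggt
Zscan4f: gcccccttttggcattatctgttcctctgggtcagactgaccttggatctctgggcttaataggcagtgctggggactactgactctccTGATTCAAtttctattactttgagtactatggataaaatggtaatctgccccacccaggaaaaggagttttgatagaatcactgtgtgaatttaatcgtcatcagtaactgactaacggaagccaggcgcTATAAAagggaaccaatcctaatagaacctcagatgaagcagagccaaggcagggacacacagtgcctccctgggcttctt

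The 4 windows share from 95.3% of aligned bases (Zscan4b and Zscan4c, 264 of 277) to 99.3% (Zscan4c and Zscan4f, 275 of 277). Both strands of each window were searched. TATAAA occurs once in all 4 windows and in 13.6% of all 32851 RefSeq windows of this length. It begins 31 bases before the annotated start in Zscan4b and Zscan4f, 54 before it in Zscan4c and 65 before it in Zscan4d. The motif reported for Dux occurs in none of the 4 windows and in 0.0335% of all windows. TGATTCAA, which matches the opening of that motif and was picked after the windows had been read, occurs in Zscan4c, Zscan4d and Zscan4f but not in Zscan4b, and in 0.581% of all windows.

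**Figure D1:**
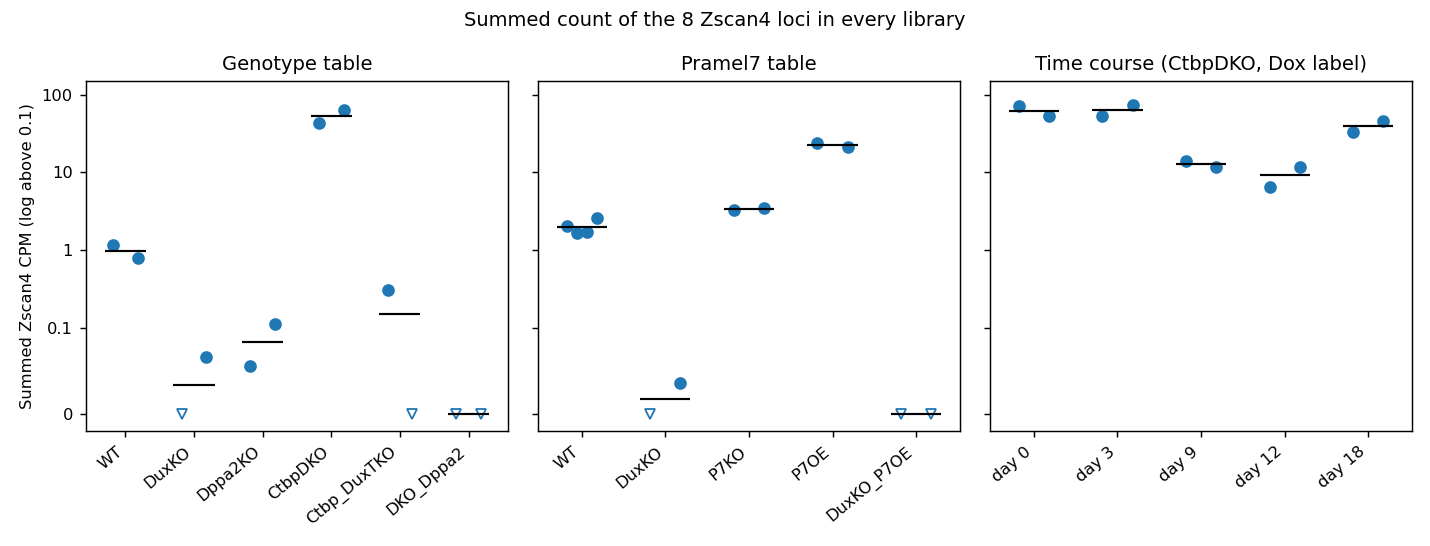
Summed CPM of the 8 Zscan4 loci (vertical axis, linear from 0 to 0.1 and logarithmic above) in each of the 34 libraries, by group and table; filled points are libraries with counts, open triangles libraries at 0 counts, and bars the group mean. CtbpDKO sits at 43.6 and 63.2 CPM and P7OE at 23.9 and 21.3, while no library without Dux or Dppa2 passes 0.303.

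CtbpDKO had the highest Zscan4 level in the genotype table. The 8 loci together had 35 and 24 counts in the WT libraries (1.17 and 0.782 CPM) and 1428 and 2263 in CtbpDKO (43.6 and 63.2 CPM), a 55.1-fold higher rate (95% exact counting interval 42.6 to 72.5). In bulk RNA, more cells that express Zscan4 and more Zscan4 RNA per cell cannot be told apart. All 8 members rose by edgeR's quasi-likelihood test, adjusted over 21193 genes, beside 14.7% of all genes tested that were called higher (26.1% in either direction). The members passed the filter on low counts only through the CtbpDKO libraries, where they are high. A call was thus likely for them from the start, and the share over all genes is not a like comparison. DESeq2 called 4 of them.

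The coding genes covered a range of starting levels. Zscan4f, a full-length family member, went from 15 and 7 counts in WT to 307 and 487 in CtbpDKO, a log2 fold change of 4.96 (SE 0.43, adjusted p = 1.35e-05). Zscan4c, the copy most studied in embryonic stem cells, went from 12 and 3 counts to 323 and 476 (log2 fold change 5.52, SE 0.54, adjusted p = 3.4e-05). The CtbpDKO libraries lay far above the WT libraries for both genes. Zscan4d, a copy transcribed in the 2-cell embryo, had 0 and 2 counts in WT and 88 and 104 in CtbpDKO. With so few WT counts its ratio of 84.7 has a counting interval from 23.1 to 704. Zscan4b had 0 counts in both WT libraries and 110 and 214 in CtbpDKO, at least 95.3-fold higher against a floor of 3 counts over the group.

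The annotated pseudogenes moved with the coding genes. Zscan4-ps2 had 8 counts in each WT library and 235 and 421 in CtbpDKO, a log2 fold change of 5.14 (SE 0.51, adjusted p = 3.76e-05). Zscan4a had 0 and 4 counts in WT and 157 and 241 in CtbpDKO. Zscan4e and Zscan4-ps1 had 0 counts in WT, and they were at least 103-fold and 52.0-fold higher with 142 and 209 and with 66 and 111 counts in CtbpDKO. For each of the 8 loci the lower CtbpDKO library exceeded the higher WT library. How many of all genes separate in this way was not counted. The ninth locus, Zscan4-ps3, had 7 and 6 counts in WT and 219 and 348 in CtbpDKO.

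**Figure D2:**
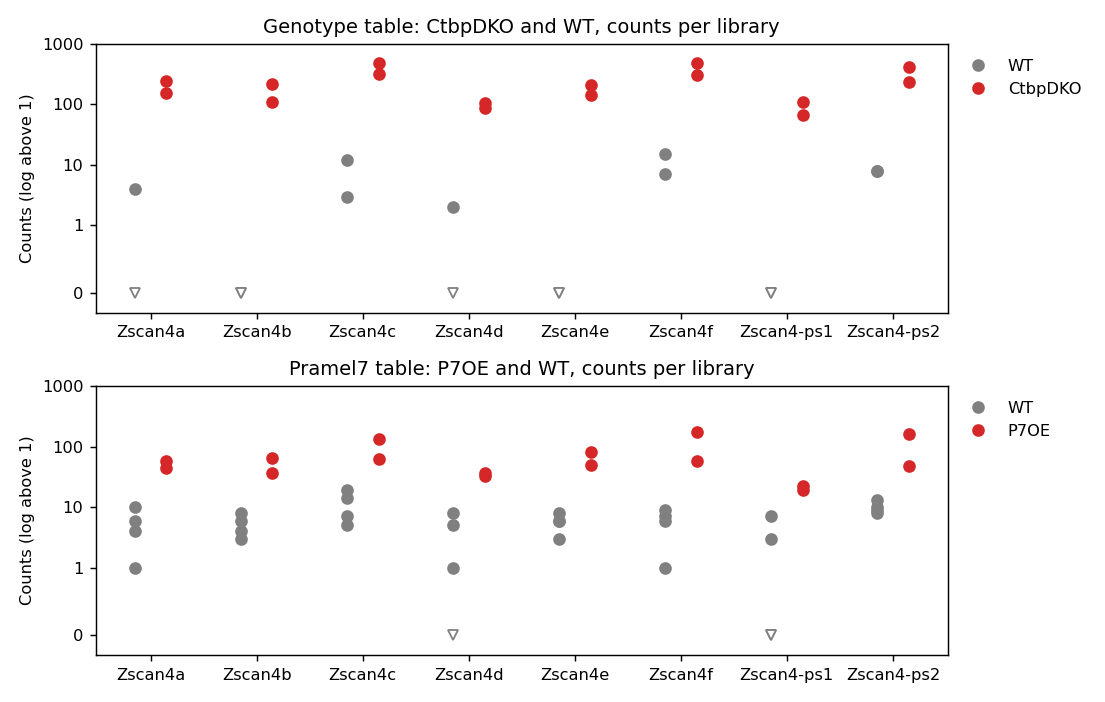
Counts of each of the 8 Zscan4 loci in single libraries (vertical axis, linear from 0 to 1 and logarithmic above), grey for WT and red for CtbpDKO (above) or P7OE (below); open triangles are libraries at 0. Counts in CtbpDKO run from 66 and 111 for Zscan4-ps1 to 307 and 487 for Zscan4f.

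The tables hold little expression around the loci. Besides the members and Zscan4-ps3, 76 RefSeq genes lie within 500 kb. Of these 75 were in the genotype table, and 53 had 0 counts in every library. Zik1, a zinc finger gene, was the only one of the 75 to pass the filter, and its log2 fold change in CtbpDKO against WT was 0.28 and not called.

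Other genes of the 2-cell program were higher in the same comparison. Of 28 other 2-cell genes on the list, 19 passed the filter and 16 rose, with none lower, in CtbpDKO against WT. Their median fitted log2 fold change was 6.34, or 5.13 with the 7 genes at 0 in WT held at their lower bound, beside 0.01 over all genes tested. Gm8300 (119 and 154 counts), Usp17la (76 and 82), AF067061 (57 and 45) and Sp110 (34 and 44) all had 0 counts in WT. Among 7 activators of the 2-cell state 3 rose and none fell: Duxf3 from 1 and 0 counts to 40 and 24, Tbx3 by 1.71 and Dppa2 by 0.69 on the log2 scale. Of 23 repressors of the 2-cell state or of Zscan4, 5 were higher and 2 lower. Setdb1 and Ehmt2, histone H3K9 methyltransferases, and Hdac1, a histone deacetylase, were higher by 0.48, 0.47 and 0.46 on the log2 scale, and Zmym2, a zinc finger corepressor, fell by 0.70.

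Genes tied to the telomere role of Zscan4 did not move as a block. Of 21 tested telomere and recombination genes 7 were higher and 4 lower in CtbpDKO, with a median log2 fold change of 0.04. Terc, the RNA template of telomerase, went from 1552 and 1372 counts to 5807 and 5134 (log2 fold change 1.73), and Smc1b, a meiotic cohesin subunit, rose by 1.85. Sycp3, part of the synaptonemal complex, and Pot1b, a shelterin protein, fell by 1.22 and 1.12. Among 5 reported protein partners of Zscan4, Hdac1 and Uhrf1 were higher, and the other 3 were not called. Of 24 other genes with a SCAN domain 1 was higher and 5 were lower, and the median over all 24 was -0.37 on the log2 scale. Among these Zkscan3 fell by 0.94 and Zscan26 by 0.67.

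Markers of other cell types also differed between CtbpDKO and WT. Of 6 primitive endoderm markers 3 were higher, with summed levels of 25.3 to 30.0 CPM in WT and 32.8 to 35.7 in CtbpDKO, and none at 0. Of 7 trophoblast markers 3 of 6 tested were higher (18.8 to 19.2 CPM in WT, 31.5 to 32.6 in CtbpDKO, with Elf5 at 0 in WT). Of 8 fibroblast markers 1 of 3 tested was higher (1.74 to 2.25 CPM in WT, 11.3 to 11.6 in CtbpDKO, with Dcn, Lum, Postn and Twist2 at 0 in CtbpDKO). Of 5 mesoderm and neural markers 1 of 4 tested was higher and 2 were lower. Their part in the Zscan4 result was not tested.

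Removing Dux as well as the Ctbp genes brought the family back to almost nothing. Ctbp_DuxTKO had 7 and 0 counts over the 8 loci against 1428 and 2263 in CtbpDKO, a 404-fold lower rate (counting interval 196 to 1000). The log2 ratio of -8.66 was -7.47 without Ctbp_DuxTKO replicate 2, the library at 0. All 8 members fell, beside 4.54% of all genes tested that were called lower (8.15% in either direction). Here too the members had passed the filter only through CtbpDKO, so that share is not a like comparison. DESeq2 gave an adjusted p to 6 members and called 3. The 7 counts were 3 of Zscan4c, 3 of Zscan4-ps2 and 1 of Zscan4f, all in replicate 1. Zscan4f was 608-fold lower (counting interval 109 to 24000) and Zscan4a, with 0 counts left, at least 102-fold lower. Duxf3 fell from 40 and 24 counts to 0 in these libraries. Pramel7, by contrast, kept 30 and 42 counts in Ctbp_DuxTKO against 67 and 79 in CtbpDKO, and this difference was not called.

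Against DuxKO cells, loss of the Ctbp genes left no Zscan4 change that the test could see. DuxKO had 0 and 2 counts over the 8 loci and Ctbp_DuxTKO 7 and 0, so the groups overlapped. None of the 8 members was called by edgeR or by DESeq2 and none had an unadjusted p under 0.05, in a comparison where 41% of all genes were called. At these counts a difference of a few counts was not detectable. The test of whether the effect of Ctbp loss differed with Dux called 1 member, Zscan4d (adjusted p = 0.0406 by edgeR), beside 9.64% of all genes called in that direction (19.5% in either). DESeq2 called 2. Ctbp_DuxTKO is at 0 for Zscan4d, so the fitted size depends on the prior count and is not given. The call for Zscan4d rests on 2 counts in DuxKO replicate 2: it was lost when that library was left out, and likewise without WT replicate 1, either CtbpDKO library or either Ctbp_DuxTKO library, and with the replicate number in the fit. For Zscan4a, Zscan4b, Zscan4e and Zscan4-ps1 all 4 libraries without Dux were at 0, so the difference could not be estimated, and Zscan4c, Zscan4f and Zscan4-ps2 had adjusted p-values from 0.841 to 0.899.

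Primitive endoderm markers went the other way in the Dux comparison. In Ctbp_DuxTKO against CtbpDKO 5 of 6 were higher, with summed levels of 119 to 124 CPM against 32.8 to 35.7, and none at 0. Of the 19 other 2-cell genes tested 10 fell and none rose. Among them Usp17le went from 219 and 235 counts to 0 and Gm4340 from 1753 and 2024 counts to 0 and 6.

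Dppa2 loss had the same outcome for the family. DKO_Dppa2 had 0 counts at all 8 loci in both libraries, at least 783-fold below CtbpDKO. All 8 members fell, beside 9.67% of all genes tested that were called lower (15.4% in either direction), and DESeq2 called 5. Again the members had passed the filter only through CtbpDKO, so that share is not a like comparison. Zscan4c, from 323 and 476 counts, was at least 169-fold lower. For Zscan4f the bound was 168-fold, and for Zscan4-ps2, from 235 and 421 counts, 139-fold. Duxf3 was also at 0 in these libraries, at least 13.6-fold lower, and Pramel7 fell to 4 and 6 counts. Of the 19 other 2-cell genes tested 15 fell. Primitive endoderm markers were lower too, 4 of 6, with summed levels of 9.92 to 10.5 CPM, and their part in the result was not tested.

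DKO_Dppa2 was also compared with its other relatives. Against Dppa2KO, with 2 and 4 counts, and against Ctbp_DuxTKO, with 7 and 0 counts, none of the 8 members was called by edgeR or DESeq2 or had an unadjusted p under 0.05. The shares of all genes called were 30.4% and 23%. With so few counts no call of a member could be expected, so those shares are no measure for the members. The test of whether the effect of Ctbp loss differed with Dppa2 called 1 member, Zscan4b (adjusted p = 0.026 by edgeR), beside 5% of all genes called in that direction (8.23% in either), and DESeq2 called 2. It rests on 3 counts of Zscan4b in Dppa2KO replicate 2. No member was called without that library, without WT replicate 2 or without CtbpDKO replicate 2. Zscan4d and Zscan4e had adjusted p-values of 0.0814 and 0.063.

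Single loss of Dux or of Dppa2 lowered a level that was already low. DuxKO had 0 and 2 counts over the 8 loci in the genotype table against 35 and 24 in WT, 29.1-fold lower (counting interval 7.7 to 246). Dppa2KO had 2 and 4 counts, 11.7-fold lower (5.05 to 33.0), a log2 ratio of -3.54 that was -4.15 without Dppa2KO replicate 2. In both comparisons the same 3 members were called lower: Zscan4c, Zscan4f and Zscan4-ps2. They were the members with the most counts in WT and had 0 counts in all 4 knockout libraries. No member passed the filter on low counts in a fit of the compared groups alone. These calls therefore depend on the other groups in the fit. All genes called lower were 9.56% for DuxKO (17.5% in either direction) and 8.69% for Dppa2KO (16.4% in either direction). DESeq2 called 2 members in each. Zscan4f was at least 7.21-fold lower in DuxKO and at least 8.68-fold lower in Dppa2KO. Both comparisons use the same WT libraries, and each fell to 1 member called without WT replicate 1 or without either knockout library. Primitive endoderm markers were lower in the same libraries, 5 of 6 in DuxKO and 1 of 6 in Dppa2KO, with summed levels of 6.45 to 6.56 and 14.3 to 17.7 CPM against 25.3 to 30.0 in WT and none at 0. Their part in the result was not tested.

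Cells without Ctbp also stood below WT once Dux or Dppa2 was gone. DKO_Dppa2 was at least 14.2-fold below WT, and Zscan4c, Zscan4f and Zscan4-ps2 fell, beside 16.1% of all genes called lower (31.6% in either direction). Without WT replicate 1 or either DKO_Dppa2 library 1 member was called. Ctbp_DuxTKO was 7.33-fold below WT (counting interval 3.34 to 19.0), and the log2 ratio of -2.87 was -1.68 without Ctbp_DuxTKO replicate 2. Zscan4f alone was called lower, beside 13.9% of all genes (29.5% in either direction). It was not called without WT replicate 1 or Ctbp_DuxTKO replicate 2, and 2 members were called without Ctbp_DuxTKO replicate 1. No member passed the filter on low counts for either comparison in a fit of the compared groups alone, so these calls depend on the other groups. Against WT, 3 of 6 primitive endoderm markers were lower in DKO_Dppa2 and all 6 were higher in Ctbp_DuxTKO, and their part in the result was not tested.

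The Pramel7 table gave a second view of Dux loss. WT replicates 3 to 6 had 54, 41, 45 and 57 counts over the 8 loci (1.65 to 2.59 CPM), and DuxKO replicates 3 and 4 had 0 and 1. The ratio was 91.1 (counting interval 16.2 to 3620). Zscan4b, Zscan4c, Zscan4e, Zscan4f and Zscan4-ps2 fell, beside 8.91% of all genes called lower (16.7% in either direction), and DESeq2 called 6 members. Zscan4c had 14, 7, 5 and 19 counts in WT and 0 in DuxKO, at least 6.93-fold lower. The members called fell to 1 without DuxKO replicate 3 and to none without DuxKO replicate 4. With WT replicates 3 and 4 alone 3 were called. Most members did not pass the filter on low counts in a fit of the compared groups alone. In this table the summed levels of the primitive endoderm markers overlapped between DuxKO and WT (7.0 to 8.0 and 6.58 to 8.47 CPM).

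Overexpression of Pramel7 raised every member. P7OE had 740 and 350 counts over the 8 loci (23.9 and 21.3 CPM) and WT 1.65 to 2.59 CPM, an 11.6-fold higher rate (counting interval 9.95 to 13.6). All 8 members rose by edgeR's test, beside 11% of all genes tested that were called higher (19.9% in either direction), and DESeq2 called 7. With WT replicates 3 and 4 alone 30.1% of all genes were called. Zscan4d and Zscan4-ps1, with at most 8 and 7 counts in any library outside P7OE, passed the filter on low counts only through P7OE. A call was thus likely for them from the start. Without P7OE replicate 2, 5 members were called.

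Zscan4f had 9, 1, 6 and 7 counts in WT and 177 and 59 in P7OE, a log2 fold change of 4.30 (SE 0.54, adjusted p = 0.000355). Zscan4-ps2 had 9, 8, 10 and 13 counts in WT and 165 and 47 in P7OE (log2 fold change 3.33, SE 0.41, adjusted p = 0.000316). The other 6 members had log2 fold changes from 3.13 (Zscan4c, 134 and 63 counts in P7OE) to 3.55 (Zscan4e, 82 and 49 counts). Zscan4-ps1, with 7, 0, 3 and 0 counts in WT and 22 and 19 in P7OE, was nearest to the threshold at an adjusted p of 0.0482. No P7OE library overlapped a WT library at any of the 8 loci when scaled to library size. The share of all genes without such overlap was not counted.

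Duxf3 did not pass the filter on low counts in the Pramel7 table. It had 17 counts in P7OE replicate 1 and 1 in replicate 2, against 2, 1, 1 and 0 in WT, whereas the summed Zscan4 level was 23.9 and 21.3 CPM in these libraries. The Pramel7 level was 14 CPM in replicate 1 and 26.2 in replicate 2. Of 14 other 2-cell genes tested 10 rose and none fell in P7OE, 1 of them Pramel7 itself. Usp17lc went from 2, 3, 0 and 2 counts to 60 and 24. Of 23 repressors 8 were lower and 1 higher. Lin28a, an RNA-binding protein, and Pcgf6, a Polycomb subunit, fell by 0.81 and 0.79.

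In cells without Dux the same overexpression gave no Zscan4 counts. DuxKO_P7OE had 0 counts at all 8 loci in both libraries, although its Pramel7 level, 49.3 and 56.7 CPM, was above that of P7OE. The family was at least 163-fold lower than in P7OE. The fit called only 6 of 20161 genes in this comparison, or 0.0298%, all 6 of them lower. They were Zscan4-ps2 (at least 31.7-fold lower), Gm21304, Gm21312, Gm20765, Gm4340 and Anxa3. The other 7 members had adjusted p-values from 0.0573 (Zscan4c and Zscan4f) to 0.316 (Zscan4-ps1), and all 8 had an unadjusted p under 0.05. DESeq2 gave 3 members an adjusted p and called all 3. Without P7OE replicate 1 or either DuxKO_P7OE library no member was called, whereas 7 were called with no filter on low counts, 6 in a fit of the compared groups alone and 5 with the replicate number in the fit.

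Against DuxKO, DuxKO_P7OE had 0 Zscan4 counts against 1, too few for any difference to be detected. None of the 8 members was called by edgeR or DESeq2 and none had an unadjusted p under 0.05, beside 21.4% of all genes called. The test of whether Pramel7 acted differently with and without Dux called no member by either tool and none at an unadjusted p under 0.05, beside 7.5% of all genes. For 7 of 8 members all 4 libraries without Dux were at 0, so that difference could not be estimated.

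Primitive endoderm markers rose with Pramel7 whether or not Dux was present. All 6 were higher in P7OE against WT and in DuxKO_P7OE against DuxKO. Their summed level was 6.58 to 8.47 CPM in WT, 68.8 to 73.5 in P7OE, 7.0 to 8.0 in DuxKO and 62.7 to 68.6 in DuxKO_P7OE. Zscan4 was at 0 in the DuxKO_P7OE libraries, and the part of these markers in the Zscan4 result was not tested. Trophoblast markers summed to 29.9 to 53.2 CPM in WT and 19.1 to 22.3 in P7OE.

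Pramel7 knockout gave a small shift that no single locus carried past the threshold. P7KO had 105 and 99 counts over the 8 loci (3.30 and 3.45 CPM), all above the WT libraries, and the rate was 1.69-fold higher (counting interval 1.39 to 2.07). None of the 8 members was called by edgeR or DESeq2, while 3 had an unadjusted p under 0.05, and 9.48% of all genes were called. With WT replicates 3 and 4 alone 23.1% of all genes were called, so this share depends on which WT libraries are used. The P7KO and WT libraries did not overlap for Zscan4b (13 and 23 counts against 3, 8, 4 and 6 in WT, adjusted p = 0.14), Zscan4e (14 and 34 against 3, 6, 6 and 8, adjusted p = 0.0756) and Zscan4f (26 and 11 against 9, 1, 6 and 7, adjusted p = 0.198). Non-overlap was not counted over all genes. Zscan4a, Zscan4c and Zscan4d had log2 fold changes of -0.11, -0.05 and -0.08. Cell type markers differed in the same libraries. Embryonic stem cell markers summed to 2470 to 2480 CPM in P7KO and 1490 to 2000 in WT (3 of 7 higher, none at 0), and mesoderm and neural markers to 52.8 to 56.1 against 87.7 to 112 (1 of 4 tested higher, 2 lower, none at 0). Fibroblast markers summed to 0.662 to 1.07 CPM against 3.05 to 5.31 (2 of 2 tested lower), with Col1a2, Col3a1, Dcn and Postn at 0 in P7KO. Their part in the result was not tested.

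The split of the family count between loci was examined in the 18 libraries with at least 50 family counts. Zscan4c took a median of 20.4% (range 12.1% to 34.8%), Zscan4f 19.2% (11.1% to 29.1%) and Zscan4-ps2 17.6% (12.2% to 22.8%). Zscan4a, Zscan4e and Zscan4b followed with medians of 10.8%, 10.5% and 9.67%, and Zscan4d and Zscan4-ps1 took 6.0% and 4.91%. These are shares of counts, not of molecules, because reads per locus depend on transcript length and on how reads shared by copies were assigned.

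Most libraries resembled each other in this split, with exceptions. Zscan4b and Zscan4e together took 17.6% and 18.7% of the family count in the CtbpDKO libraries and 19.9% and 24.3% in P7OE. In P7KO they took 25.7% in replicate 1 (95% exact binomial interval 17.7% to 35.2%) and 57.6% in replicate 2 (47.2% to 67.5%). In the time course the lowest value was 6.40% in day 18 replicate 1, where Zscan4b had 8 of 578 counts, against 105 of 1386 in replicate 2. Zscan4d had 0 of 265 counts in day 9 replicate 2 and 29 of 389 in replicate 1. Intervals here cover counting error only.

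**Figure D3:**
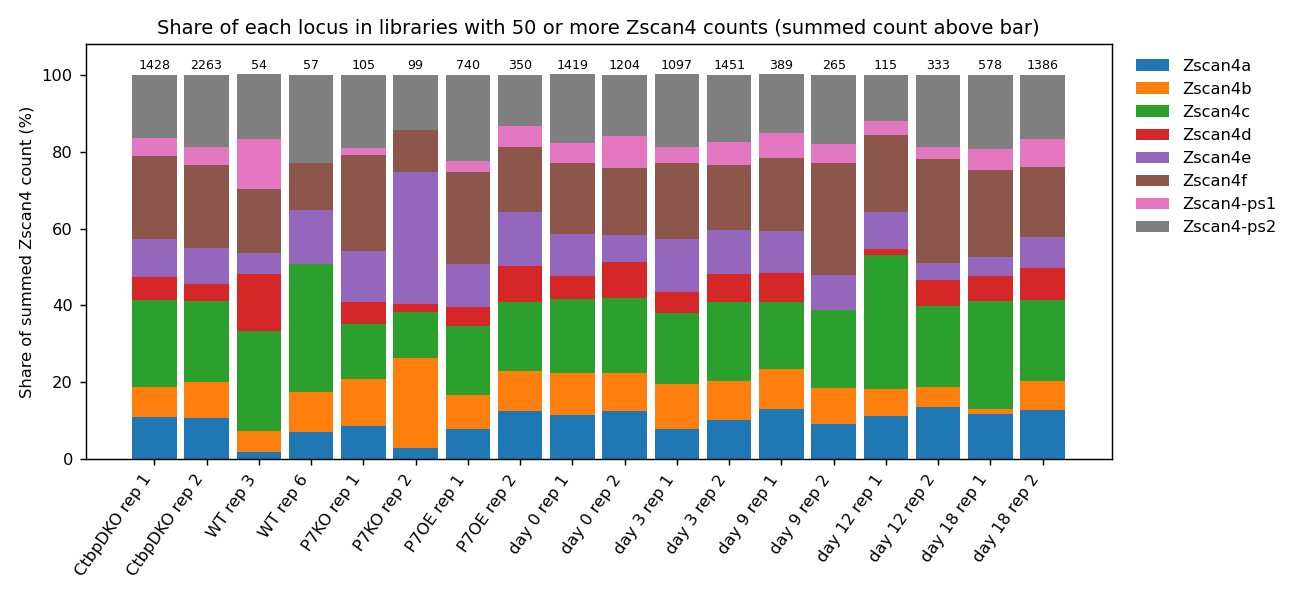
Share of the summed Zscan4 count taken by each locus (vertical axis, percent) in the 18 libraries with 50 or more family counts, 1 bar per library with its summed count on top. Zscan4c, Zscan4f and Zscan4-ps2 make up the larger parts of most bars; P7KO replicate 2 stands out for Zscan4b and Zscan4e, 57.6% together.

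The time course followed Zscan4 in CtbpDKO cells while Ctbp2 changed. Ctbp2 was at 58.9 and 59.3 CPM on day 0, rose to 544 and 573 on day 3, was at 310 and 296 on day 9, and was at 49.4 and 44.7 on day 12 and 52.4 and 54.7 on day 18. Ctbp1 had 0 to 4 counts throughout. The family was at 70.6 and 53.8 CPM on day 0 (1419 and 1204 counts), 53.6 and 74.0 on day 3, 14.2 and 11.6 on day 9, 6.56 and 11.7 on day 12 and 32.7 and 46.1 on day 18. In order of mean level, days 3 and 0 overlapped, day 18 lay below them, and days 9 and 12 overlapped at the bottom.

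On day 3 Ctbp2 was higher by 3.24 on the log2 scale and no Zscan4 difference was called. The family ratio to day 0 was 1.03 (counting interval 0.977 to 1.09). None of the 8 members was called by edgeR or DESeq2 and none had an unadjusted p under 0.05, beside 4.99% of all genes called. Log2 fold changes ran from -0.35 (Zscan4a, SE 0.35) to 0.47 (Zscan4e, SE 0.37). Zscan4c had 272 and 235 counts on day 0 and 204 and 297 on day 3. On the same day Pramel7 had fallen from 42 and 28 counts to 6 and 2 (log2 fold change -3.03, adjusted p = 0.0179 by edgeR), and Dppa2 fell by 0.55 on the log2 scale.

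By day 9 the family had fallen. It was 4.73-fold below day 0 (counting interval 4.34 to 5.16), and all 8 members fell, beside 3.73% of all genes called lower (7.34% in either direction), with 6 called by DESeq2. Zscan4c went from 272 and 235 counts to 68 and 54 (log2 fold change -2.31, SE 0.23, adjusted p = 4.38e-05). Zscan4-ps2 went from 254 and 193 to 59 and 48 (log2 fold change -2.32, SE 0.32, adjusted p = 0.000615). Zscan4f fell by 1.89 and Zscan4d, the copy with 29 and 0 counts on day 9, by 3.03. Every day 9 library lay below every day 0 library at all 8 loci, and the share of all genes that separate in this way was not counted. Without day 0 replicate 1, 5 members were called, and without day 9 replicate 2, 4.

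Most of that fall lay between days 3 and 9. The family was 4.88-fold lower on day 9 than on day 3 (counting interval 4.48 to 5.33) and 6 members fell, beside 0.592% of all genes called lower (1.12% in either direction). DESeq2 also called 6. The 2 members not called, Zscan4b and Zscan4d, had log2 fold changes of -2.43 (adjusted p = 0.0513) and -2.87 (adjusted p = 0.104). The count called was 2 without day 3 replicate 2 and 3 without day 9 replicate 2. Pramel7, already low on day 3, had 4 and 9 counts on day 9. Duxf3 had 20 and 19 counts on day 0, 24 and 19 on day 3 and 17 and 3 on day 9, and was called in none of the time course comparisons.

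The family was still low on day 12, when Ctbp2, at 49.4 and 44.7 CPM, lay below its day 0 libraries (58.9 and 59.3 CPM). It had 115 and 333 counts on day 12 and 389 and 265 on day 9, a ratio of 1.33 lower (counting interval 1.18 to 1.51) with libraries that overlapped. None of the 8 members was called by edgeR or DESeq2 and 2 had an unadjusted p under 0.05, beside 3.84% of all genes called. Zscan4c had 40 and 70 counts on day 12 against 68 and 54 on day 9 (log2 fold change -0.02, SE 0.26). Pramel7 had risen over the same interval from 4 and 9 to 26 and 42 counts (log2 fold change 2.47, adjusted p = 0.0416 by edgeR), and Dppa2 by 0.58. Zscan4 and these genes thus differed in when they changed, which is a comparison of calls. The difference in timing itself was not tested.

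Between days 12 and 18 Zscan4 rose again. The family was 4.21-fold higher on day 18 (counting interval 3.80 to 4.68), and 6 members rose, beside 0.64% of all genes called higher (0.82% in either direction), with 6 called by DESeq2. Zscan4c went from 40 and 70 counts to 162 and 291 (log2 fold change 1.98, SE 0.24, adjusted p = 0.00146), and Zscan4-ps1 from 4 and 11 to 31 and 101 (log2 fold change 3.00, SE 0.52, adjusted p = 0.0157). Zscan4b and Zscan4d, with adjusted p-values of 0.237 and 0.198, were not called. One member was called without day 12 replicate 1, 3 without day 12 replicate 2, 2 without day 18 replicate 2, and 1 in a fit of these days alone.

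In these libraries the summed family level was lower on day 18 than on day 0. The interval given here leaves out the spread between libraries. The family had 32.7 and 46.1 CPM against 70.6 and 53.8, a 1.5-fold lower rate (counting interval 1.41 to 1.59) with no overlap between libraries. None of the 8 members was called by edgeR or DESeq2, 2 had an unadjusted p under 0.05, and 0.514% of all genes were called. All 8 fitted log2 fold changes were negative, from -0.35 (Zscan4c) to -1.62 (Zscan4b). Without day 18 replicate 2, 1 member was called.

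Other 2-cell genes also changed over the time course. Of 22 tested, 2 were lower and none higher on day 3 against day 0, 12 were lower on day 9 against day 0, and 3 were higher on day 18 against day 12. Gm4340 had 2599 and 2264 counts on day 0, 499 and 176 on day 9, 210 and 430 on day 12 and 800 and 2118 on day 18. Primitive endoderm markers summed to 15.9 to 19.1 CPM on day 0, 16.4 to 16.6 on day 9, 25.1 to 27.3 on day 12 and 58.1 to 67.3 on day 18, where 3 of 6 were higher than on day 0, and their part in the result was not tested. Fibroblast markers summed to 9.96 to 11.8 CPM on day 0 and 18.9 to 20.5 on day 18, with Dcn, Lum, Postn and Twist2 at 0 on both days.

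**Figure D4:**
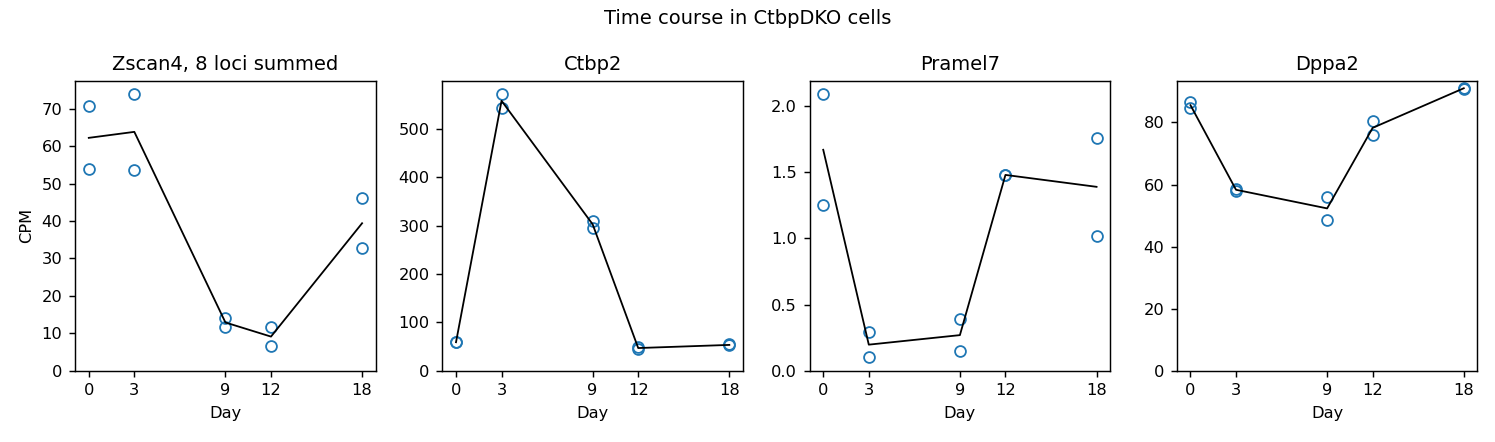
CPM (vertical axes, linear, each panel with its own range) of the summed Zscan4 count, Ctbp2, Pramel7 and Dppa2 by day (horizontal axis) in CtbpDKO cells; circles are the 2 libraries of a day and the line joins the means. Zscan4 on day 3, when Pramel7 is at 6 and 2 counts, overlaps day 0, and it is still low on day 12, when Ctbp2 is at 49.4 and 44.7 CPM and Pramel7 at 26 and 42 counts.

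The genes most like the family were ranked among 17979 genes by Pearson correlation of log2 CPM with the summed Zscan4 count, across the 12 genotype libraries and the 10 time course libraries, taking the lower of both values. Libraries share their depth and their group with the family count, and the values are a description. Gm20767 led with 0.957, followed by Gm20765 (0.950), Gm21312 (0.944), Gm21304 (0.927), Zscan4-ps3 (0.926), Usp17ld (0.924), Gm5039 (0.919), Gm21293 (0.919), Gm21761 (0.912) and Gm36627 (0.905). Gm20765, Gm21312, Gm21304 and Gm21293 are annotated on chromosome 10 and Gm20767 and Gm21761 on chromosome 13. Gm20765, Gm21312 and Gm21304 were also among the 6 genes called lower in DuxKO_P7OE against P7OE. Usp17ld, a ubiquitin protease gene of the 2-cell stage, had 104 and 100 counts in CtbpDKO and 0 in DKO_Dppa2.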

How the data were processed

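RNA was sequenced in 34 libraries, held in 3 tables of 12, 12 and 10, and 6 bisulfite libraries of the series were not analysed here. The values are the authors' deposited counts per gene, whole numbers that were not normalized. Per the submitters' processing notes, the tools were Trim Galore, HISAT2 and featureCounts with the mm10 build. Their versions and their settings for strand and for reads with several matches are not given in the sources used here.

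Each table was fitted alone, all its libraries together, with edgeR 4.0.16 (quasi-likelihood F test, group only, filterByExpr, TMM scaling, Benjamini-Hochberg threshold 0.05, prior count 0.125) in R 4.3.3. The genes tested numbered 21193, 20161 and 20612. DESeq2 1.42.0 was an alternative, as were no filter, a fit of the compared groups alone, the replicate number as a block and leaving out each library. The procedure was tested on simulated data, with smaller changes than most reported here. That test does not cover large folds from groups at or near 0 counts. Where a group had 0 counts, folds used a floor of 3 counts over the group; where it had 1 to 3, the ratio has an exact counting interval. Counting intervals cover counting error only. No column was left unmatched to a sample (0 columns).

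The members and gene lists were chosen with earlier results of these data known. Named genes were the 8 members, the 5 targeted genes, the 10 genes most like the family, and up to 4 called genes per list with the largest change and no overlap between groups. Anxa3 and Zik1 lie outside that rule and were named after their values were seen.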

Additional observations from a re-analysis of the deposited data

Results flagged for a closer look

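The effect of Ctbp loss on Zscan4d differed with Dux by the test of the difference itself (edgeR, adjusted p = 0.0406). CtbpDKO libraries held 88 and 104 counts of Zscan4d, WT and DuxKO 0 and 2 each, and Ctbp_DuxTKO none. The call was lost in 6 of the fits that left out 1 library, among them that without DuxKO replicate 2, and with the replicate block. The effect of Ctbp loss on Zscan4b differed with Dppa2 by the same kind of test (edgeR, adjusted p = 0.026). Zscan4b had 0 counts in both WT libraries, 110 and 214 in CtbpDKO, 0 and 3 in Dppa2KO and 0 in both DKO_Dppa2 libraries. The call was lost without WT replicate 2, CtbpDKO replicate 2 or Dppa2KO replicate 2. Both calls rest on groups at or near 0, so no size of the difference is given.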

How the results depend on the processing

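None of 788 alternative values of single members reversed, 705 kept their side of the threshold and 83 lost the call. They cover only members called in the main fit, in a chosen part of the comparisons. Left out were the interactions and, in the genotype table, DuxKO, Dppa2KO, Ctbp_DuxTKO and DKO_Dppa2 against WT. Settings that gave a member no adjusted p were left out too. The 58 values with a prior count of 2 could not lose a call, because that setting changes only the fitted fold. Ratios of the summed family count moved by less than the spread between libraries, also with Zscan4-ps3 added, an alternative chosen after seeing the data. For fits that left out 1 library this says little, because that spread comes from the same libraries, mostly 2 per group. The spread is also wide where counts are few. Leaving out single libraries gave log2 ratios from -8.89 to -7.47 for Ctbp_DuxTKO against CtbpDKO. The ratios ran from -3.14 to -1.68 for Ctbp_DuxTKO against WT and from -4.15 to -3.1 for Dppa2KO against WT. With DESeq2 the members called numbered 4 for CtbpDKO against WT, 3 for Ctbp_DuxTKO against CtbpDKO, 5 for DKO_Dppa2 against CtbpDKO, 2 for each Ctbp interaction and 3 for DuxKO_P7OE against P7OE. With no filter they numbered 3 for Ctbp_DuxTKO against WT, 3 for the interaction with Dppa2, 7 for DuxKO_P7OE against P7OE, 1 for P7KO against WT, 1 for day 12 against day 9 and 2 for day 18 against day 0. In a fit of the compared groups alone they numbered 2 for DuxKO against WT in the Pramel7 table, 6 for DuxKO_P7OE against P7OE and 1 for day 18 against day 12. The replicate numbers did not pair the libraries (median correlation of deviations -0.07 in the genotype table); with the replicate block the interaction with Dux called 0 members and DuxKO_P7OE against P7OE 5. With WT replicates 3 and 4 alone 3 were called for DuxKO. Over all genes that setting called 6124 for P7OE against WT in place of 4003, and 4693 for P7KO against WT in place of 1911. By Spearman's rho 3 of the 10 genes most like the family stayed among the top 10. Leaving out single libraries gave 1 to 2 members called for DuxKO, Dppa2KO and DKO_Dppa2 against WT, 0 to 2 for Ctbp_DuxTKO against WT, 0 to 1 for both Ctbp interactions, 0 to 5 for DuxKO against WT in the Pramel7 table, 5 to 8 for P7OE against WT, 0 to 1 for DuxKO_P7OE against P7OE, 2 to 6 for day 9 against day 3, 1 to 5 for day 18 against day 12, 4 to 7 for day 9 against day 0 and 0 to 1 for day 18 against day 0. Over all genes, DuxKO_P7OE against P7OE called 6 genes, and 350 with no filter, 63 with the compared groups alone, 136 with the block and 147 with DESeq2. With no filter day 9 against day 3 called 789 genes in place of 230, and day 18 against day 12 called 652 in place of 169. In many of the fits that left out 1 library, calls over all genes dropped as well. The loss of calls in those fits was therefore not particular to Zscan4. In a fit of the compared groups alone no member passed the filter for DuxKO, Dppa2KO, Ctbp_DuxTKO or DKO_Dppa2 against WT in the genotype table or between groups that are both near 0, and 2 members passed it for DuxKO against WT in the Pramel7 table. With the replicate block in the Pramel7 table no member passed it for DuxKO against WT, and P7OE and P7KO share no replicate number with WT, so no blocked fit was made. These settings gave no value. The cause of the other moves was not tested.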
